A study of Mus musculus with 10 samples.

Results

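The enteroendocrine hormone and granule genes described here are the chromogranins Chga and Chgb, the serotonin-synthesis enzyme gene Tph1 and the peptide hormone genes Ghrl, Sst, Gip, Cck, Gcg, Sct and Nts. They were taken by name and are 10 of the 54838 genes listed for each library. Each library held polyadenylated RNA from the jejunal crypts of 1 mouse, and 5 WT and 5 Arid3a cKO mice were compared. Both groups received tamoxifen on 3 consecutive days and were collected 1 month after the first injection. The cKO mice were VillinCre-ERT2+/-; Arid3a fl/fl, so the Villin promoter limits recombination to intestinal epithelial cells, and the age of the mice was not given in the sources used here. Animal identifiers carried one prefix in all WT mice and another in all cKO mice, so whatever the prefix stands for, which the labels do not say, and genotype cannot be told apart.

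Enteroendocrine cells are scattered secretory cells of the gut epithelium that arise in the crypt from progenitors expressing the transcription factor Neurog3. They sense luminal contents and release hormones from dense-core granules, which are packed with chromogranins. By their main product they are named enterochromaffin cells (serotonin), X cells (ghrelin), D cells (somatostatin), K cells (GIP), I cells (cholecystokinin), L cells (glucagon-like peptides from Gcg), S cells (secretin) and N cells (neurotensin). In mice a single endocrine cell often makes more than 1 of these products, and the mix changes as the cell moves from crypt to villus. In RNA from whole crypts, fewer cells of a type and less RNA per cell cannot be told apart.

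Library totals ran from 27050455 to 28152743 expected counts in WT and from 28314069 to 31053622 in cKO. CPM is a count scaled to the library's size, and 1 CPM of these totals stands for about 27 to 31 counts. The CPM printed here also carry TMM normalization factors, which ran from 0.934 to 1.083, so their counts per CPM differ somewhat. The targeted gene, Arid3a (chr10:79927043-79955018, plus strand), measured 1.91, 2.06, 2.75, 2.68 and 2.69 CPM in WT animals 1 to 5 and 0.303, 0.516, 0.489, 0.883 and 1.17 CPM in cKO animals 1 to 5. All cKO animals lay below all WT animals (log2 fold change -1.84, SE 0.32, edgeR quasi-likelihood adjusted p = 0.00204). Of 14719 genes tested, 4167 (28.3%) passed an adjusted p of 0.05, 2298 (15.6%) higher and 1869 (12.7%) lower in cKO, and the median log2 fold change was -0.03.

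All 10 hormone and granule genes passed the filter on low counts, and 5 of them passed the threshold, all higher in cKO. These were Chga, Chgb, Tph1, Ghrl and Sst. The share of all tested genes called higher was 15.6%. Gip, Cck, Gcg, Sct and Nts did not pass. No member was called lower by edgeR, DESeq2 or limma, and 0 of them were lower at an unadjusted edgeR p under 0.05. The median log2 fold change of the 10 genes was 0.44, within a range of 0.18 to 0.68. CPM values of the groups did not overlap, with all cKO animals higher, for 3 of the 10 genes (Chgb, Tph1 and Ghrl), against 12.0% of all tested genes. For none of the 10 were all cKO animals lower, against 7.62% of all tested genes.

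**Figure D1:**
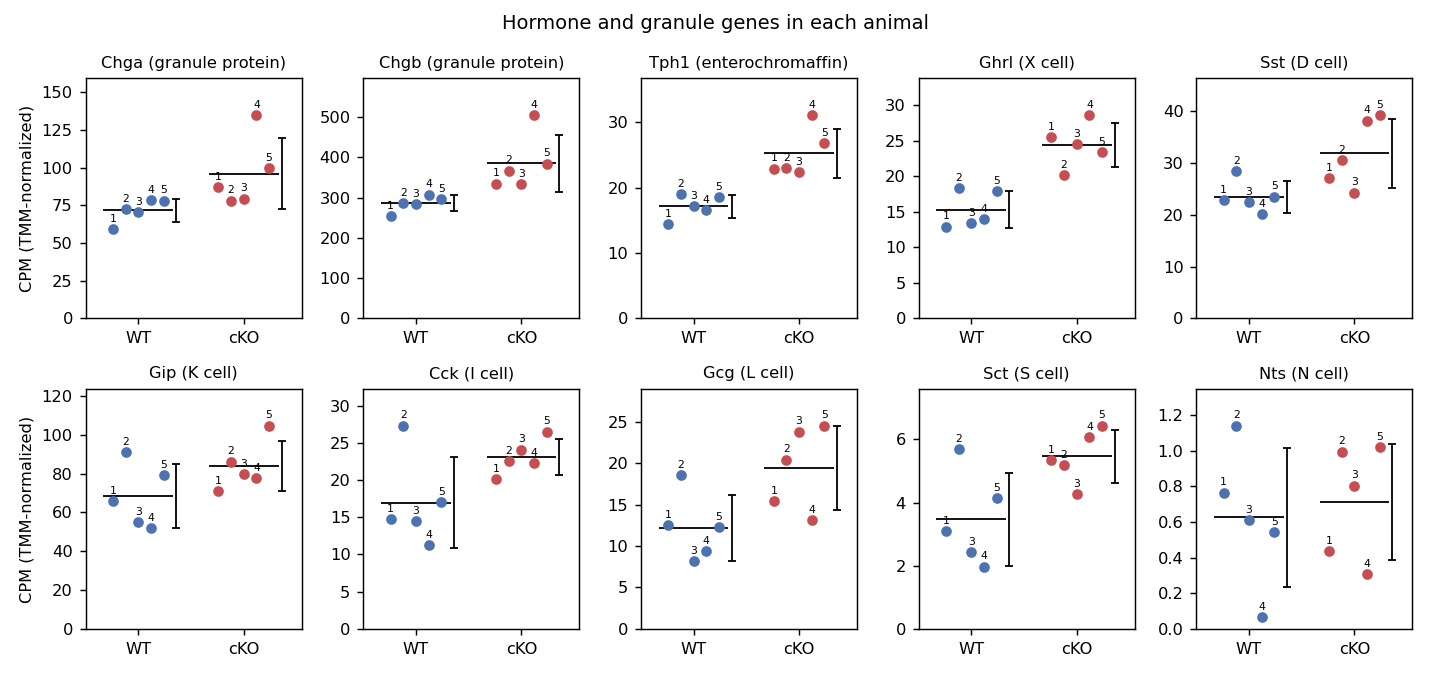
CPM on TMM-normalized library sizes (y axis, from 0) of each of the 10 genes in WT (blue) and cKO (red) animals. Each point is 1 animal, marked with its replicate number, lines are means and error bars are SD over 5 animals. The cKO points of Chgb, Tph1 and Ghrl all lie above the WT points, while the groups overlap for the other 7 genes.

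The promoters of 5 members are shown because these genes fall into the patterns described below. Ghrl, Tph1, Chga and Chgb were called higher, Tph1 has 2 annotated starts, and Gip was the most abundant peptide gene without a call. Each sequence is the 250 bases before a RefSeq transcription start (GRCm38.p6), read 5′ to 3′ on the gene's strand. Capitals mark matches to CANNTG, the E-box bound by basic helix-loop-helix factors such as NEUROG3 and NEUROD1, to GTTAAT, a half-site of the HNF1 motif, or to ATTAAA, an A+T-rich core of the kind bound by ARID3A. The Chga window is chr12:102554691-102554940 on the plus strand, and that of Chgb is chr2:132781392-132781641 on the plus strand. The Ghrl window, at the start nearest the annotated 5′ end among 4, is chr6:113719912-113720161 on the minus strand. The upstream and downstream Tph1 windows are chr7:46672538-46672787 and chr7:46667378-46667627, both on the minus strand, and the Gip window is chr11:96024295-96024544 on the plus strand.
Chga: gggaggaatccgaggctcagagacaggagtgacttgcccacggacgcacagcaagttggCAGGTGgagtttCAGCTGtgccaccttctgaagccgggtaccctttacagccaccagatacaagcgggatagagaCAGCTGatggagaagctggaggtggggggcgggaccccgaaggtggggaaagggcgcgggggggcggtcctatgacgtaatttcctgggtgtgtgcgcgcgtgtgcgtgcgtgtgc
Chgb: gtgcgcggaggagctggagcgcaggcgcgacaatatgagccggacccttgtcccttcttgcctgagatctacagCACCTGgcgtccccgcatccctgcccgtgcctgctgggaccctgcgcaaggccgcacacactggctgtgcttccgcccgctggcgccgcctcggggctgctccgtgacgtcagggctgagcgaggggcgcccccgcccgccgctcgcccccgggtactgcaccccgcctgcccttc
Ghrl: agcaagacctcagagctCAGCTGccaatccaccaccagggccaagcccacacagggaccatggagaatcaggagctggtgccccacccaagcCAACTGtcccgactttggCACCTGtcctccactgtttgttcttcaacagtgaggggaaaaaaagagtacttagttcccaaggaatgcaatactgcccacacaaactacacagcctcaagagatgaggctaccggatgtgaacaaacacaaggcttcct
Tph1 upstream start: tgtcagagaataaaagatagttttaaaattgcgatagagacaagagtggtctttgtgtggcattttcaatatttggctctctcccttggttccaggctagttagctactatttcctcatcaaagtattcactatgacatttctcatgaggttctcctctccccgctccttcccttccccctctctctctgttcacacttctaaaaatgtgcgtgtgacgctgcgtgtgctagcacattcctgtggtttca
Tph1 downstream start: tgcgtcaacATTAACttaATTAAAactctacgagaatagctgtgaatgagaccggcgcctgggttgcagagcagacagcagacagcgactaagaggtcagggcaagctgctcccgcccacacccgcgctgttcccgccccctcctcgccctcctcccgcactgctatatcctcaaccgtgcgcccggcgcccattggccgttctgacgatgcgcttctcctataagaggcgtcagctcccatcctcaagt
Gip: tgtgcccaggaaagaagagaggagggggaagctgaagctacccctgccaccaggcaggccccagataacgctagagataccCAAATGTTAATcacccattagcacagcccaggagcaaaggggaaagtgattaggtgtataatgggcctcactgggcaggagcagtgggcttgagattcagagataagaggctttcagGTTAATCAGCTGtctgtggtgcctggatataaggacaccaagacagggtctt

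Searched on both strands, CANNTG was found in the window of 9 of the 10 members at the start nearest the annotated 5′ end, and in 66.2% of all 32851 promoter windows of the same length. The exception was Tph1. The GTTAAT half-site occurred in 1 member, Gip, at 164 and 52 bases before the start, and in 6.43% of all windows. Its first match overlaps an E-box match by 1 base. ATTAAA occurred in 0 of the 10 members at that start and in 12.7% of all windows. The downstream Tph1 start held both, with ATTAAC (the reverse complement of GTTAAT) 241 bases and ATTAAA 232 bases before the start. CAAAGTCCA, an HNF4 core, occurred in 0 members and 0.384% of all windows, and TGTTTAC, a forkhead core, in 1 member (Cck) and 3.17% of all windows. Matches are descriptions of these letters, binding was not measured here, and which start was used in these crypts is not known from gene-level values.

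Levels of different genes were compared in TPM, which is scaled by transcript length. In WT crypts Gip was the most abundant member, at 166.3 ± 32.5 TPM (SD, n = 5), followed by Chgb at 139.7 ± 13.1 TPM. These neighbours did not differ beyond their spread, and Gip was above Chgb in 3 of 5 WT animals. Chga (52.2 ± 6.07 TPM), Ghrl (48.6 ± 6.37 TPM), Sst (48.6 ± 5.07 TPM) and Cck (38.3 ± 12.5 TPM) formed a middle group in which each gene's range overlapped that of the next. Gcg stood apart below them at 17.6 ± 5.29 TPM. Tph1 (10.9 ± 0.709 TPM) and Sct (10.5 ± 4.21 TPM) overlapped each other, and Nts was far lower at 0.692 ± 0.424 TPM. In cKO crypts the order was the same except for Ghrl (72.3 ± 12.0 TPM), which stood above Chga (65.8 ± 19.1 TPM) in 4 of 5 animals, and Sct (16 ± 2.75 TPM), which stood above Tph1 (15.0 ± 2.22 TPM) in 4 of 5 animals. The ranges of both pairs overlapped.

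**Figure D2:**
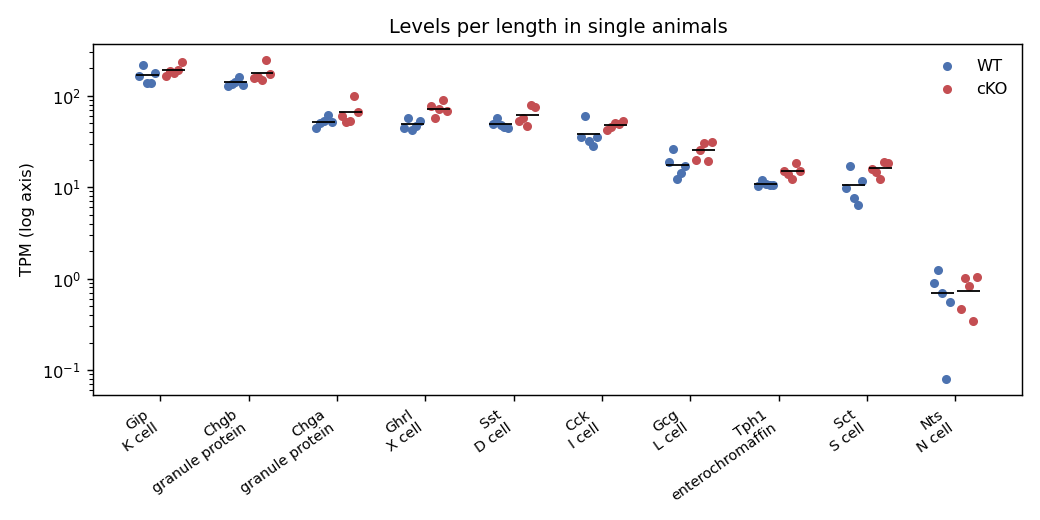
TPM (y axis, log scale) of the 10 genes in single WT (blue) and cKO (red) animals, ordered by the WT mean, with short lines for group means. Gip and Chgb lie above 100 TPM in every animal, and Nts lies at or below 1.23 TPM.

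The sum of the 10 members per library was 506.6, 632.1, 483.6, 511.3 and 533.5 TPM in WT animals 1 to 5. In cKO animals 1 to 5 it was 601.1, 616.2, 605.8, 808.9 and 730.2 TPM. The means were 533.4 ± 57.9 TPM in WT and 672.4 ± 93.1 TPM in cKO (SD, n = 5). WT animal 2, the highest of its group, lay above cKO animals 1, 2 and 3, so the groups overlapped. No test was made of this sum, which is dominated by Gip and Chgb.

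Ghrl (chr6:113716119-113719880, minus strand), the ghrelin gene of X cells, had a log2 fold change of 0.68, close to those of Gcg (0.67, SE 0.24) and Sct (0.66, SE 0.25) but with a smaller SE. It measured 12.9, 18.3, 13.4, 14.0 and 17.9 CPM in WT animals 1 to 5 and 25.5, 20.1, 24.5, 28.6 and 23.4 CPM in cKO animals 1 to 5. Every cKO animal lay above every WT animal in CPM, the closest being cKO animal 2 and WT animal 2. This was a 1.6-fold difference (log2 SE 0.12, edgeR quasi-likelihood adjusted p = 0.00289). In TPM, cKO animal 2 and WT animal 2 were almost level, at 57.4 and 57.5 TPM, so there the groups just overlapped. The annotation places an antisense gene, Gm26982, across Ghrl. It held 54 to 88 counts per library against 370 to 843 for Ghrl, and the strand setting of the counting is not given in the sources used here. Mboat4, whose product acylates ghrelin, measured 0.378 ± 0.0829 TPM in WT and 0.454 ± 0.151 TPM in cKO and did not pass (adjusted p = 0.387), a gene named after its values were seen.

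Tph1 (chr7:46644641-46672537, minus strand), tryptophan hydroxylase of the enterochromaffin cell, makes the first and rate-limiting step of serotonin synthesis. WT animals 1 to 5 had 14.4, 19.0, 17.1, 16.5 and 18.5 CPM. The cKO animals 1 to 5 had 22.9, 23.0, 22.4, 31.1 and 26.8 CPM. The groups did not overlap in CPM or in TPM, and cKO animal 4 was highest. Tph1 rose by 0.56 on the log2 scale (SE 0.11, edgeR quasi-likelihood adjusted p = 0.00387), or 1.48-fold. Ghrl and Tph1 were the only members whose call stood under all 8 other settings and in all 10 fits with 1 animal left out.

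Chgb (chr2:132781278-132795079, plus strand), the granule protein chromogranin B, measured 254.3, 285.6, 283.7, 307.6 and 296.8 CPM in WT animals 1 to 5. It measured 334.9, 367.1, 332.7, 505.4 and 384.6 CPM in cKO animals 1 to 5. All cKO animals were higher in CPM, and animal 4 stood well above the others. In TPM the groups overlapped, with cKO animals 1 and 3 (154.7 and 149.9 TPM) below WT animal 4 (161.7 TPM). Chgb rose by 0.43 on the log2 scale (SE 0.11, edgeR quasi-likelihood adjusted p = 0.013), and without cKO animal 4 it was 0.31 (adjusted p = 0.016). Chga (chr12:102554969-102565028, plus strand), the paralogous chromogranin A, had 59.0, 72.2, 70.6, 78.2 and 78.1 CPM in WT animals 1 to 5. Its cKO values were 87.2, 78.0, 79.4, 134.9 and 99.9 CPM, again highest in animal 4. Here cKO animal 2 fell just below WT animals 4 and 5, so the groups overlapped. The fitted difference was 0.42 on the log2 scale (SE 0.14, edgeR quasi-likelihood adjusted p = 0.0486). This call was lost when any 1 of WT animals 1 to 5 or cKO animals 1, 4 and 5 was left out, with adjusted p between 0.0576 and 0.096, and without cKO animal 4 the log2 fold change was 0.27. The log2 ratio of Chga to Chgb in TPM within a library was -1.42 ± 0.07 in WT and -1.44 ± 0.14 in cKO (SD, n = 5), with overlapping groups.

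Sst (chr16:23889573-23890958, minus strand), the somatostatin gene of D cells, whose product restrains the release of other gut hormones, measured 22.8, 28.5, 22.5, 20.2 and 23.5 CPM in WT animals 1 to 5. It measured 27.1, 30.6, 24.3, 38.2 and 39.3 CPM in cKO animals 1 to 5. The groups overlapped through WT animal 2, and cKO animals 4 and 5 were highest. Sst passed at a log2 fold change of 0.44 (SE 0.14, edgeR quasi-likelihood adjusted p = 0.0317). Leaving out any 1 of WT animals 1, 3, 4 and 5 or cKO animals 2, 4 and 5 took the adjusted p to between 0.0538 and 0.0871.

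Gcg (chr2:62474530-62483650, minus strand), which encodes proglucagon and so GLP-1 and GLP-2 in L cells, measured 12.5, 18.5, 8.21, 9.37 and 12.3 CPM in WT animals 1 to 5. It measured 15.4, 20.4, 23.8, 13.1 and 24.5 CPM in cKO animals 1 to 5. WT animal 2 exceeded cKO animals 1 and 4, and the estimate of 0.67 on the log2 scale (SE 0.24) missed the threshold at an edgeR quasi-likelihood adjusted p of 0.0542. Without WT animal 2 the log2 fold change was 0.87 (adjusted p = 0.00958), and without cKO animal 4 it was 0.79 (adjusted p = 0.032).

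Sct (chr7:141278330-141279133, minus strand), the secretin gene of S cells, had 3.1, 5.68, 2.44, 1.97 and 4.14 CPM in WT animals 1 to 5 and 5.35, 5.19, 4.26, 6.08 and 6.43 CPM in cKO animals 1 to 5. Only WT animal 2 lay within the cKO range, where it exceeded cKO animals 1, 2 and 3. The estimate was 0.66 on the log2 scale (SE 0.25, edgeR quasi-likelihood adjusted p = 0.0683), and 0.91 without WT animal 2 (adjusted p = 0.00846).

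Cck (chr9:121489824-121495694, minus strand), the I cell hormone that drives gallbladder contraction and pancreatic secretion, had 14.7, 27.3, 14.5, 11.3 and 17.0 CPM in WT animals 1 to 5 and 20.1, 22.5, 24.1, 22.3 and 26.5 CPM in cKO animals 1 to 5. WT animal 2 was above every cKO animal, and the other 4 WT animals were below every cKO animal. The log2 fold change was 0.45 (SE 0.20, edgeR quasi-likelihood adjusted p = 0.114), and 0.69 without WT animal 2 (adjusted p = 0.00181).

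Gip (chr11:96024545-96030831, plus strand), the K cell incretin gene, had 65.8, 91.0, 54.9, 52.0 and 79.1 CPM in WT animals 1 to 5. The cKO values were 71.0, 86.2, 79.6, 77.5 and 104.7 CPM, and the groups overlapped widely. The log2 fold change was 0.29 (SE 0.16, edgeR quasi-likelihood adjusted p = 0.191), and 0.41 without WT animal 2 (adjusted p = 0.0442).

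Nts (chr10:102481756-102490486, minus strand), the neurotensin gene of N cells, had few counts in both groups. WT animals 1 to 5 held 22, 33, 18, 2 and 15 counts and cKO animals 1 to 5 held 13, 27, 23, 9 and 27 counts. The groups overlapped throughout, and the log2 fold change was 0.18 with an SE of 0.52 (edgeR quasi-likelihood adjusted p = 0.816). Without WT animal 4 the estimate was -0.11.

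**Figure D3:**
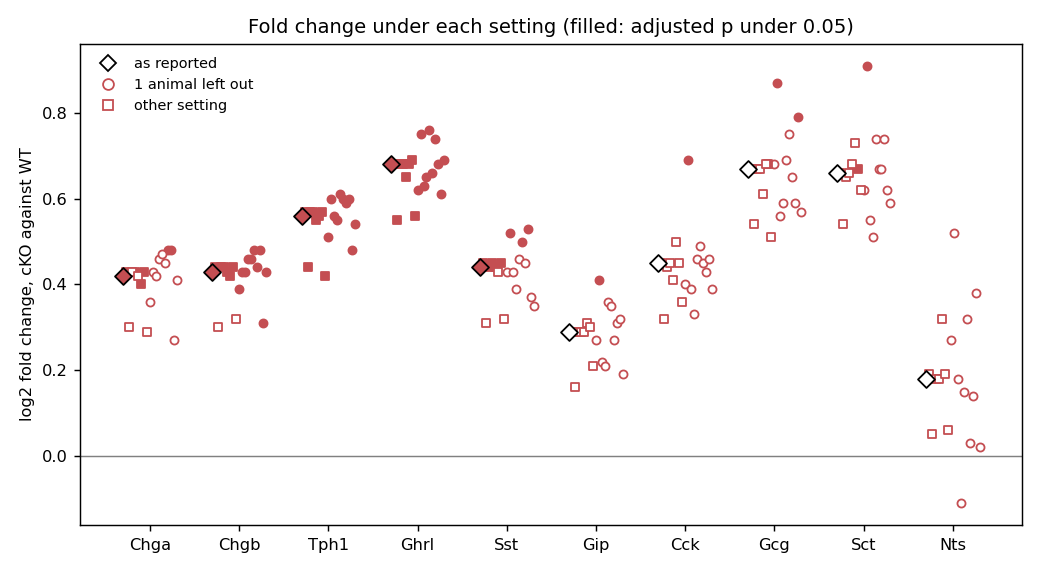
Log2 fold change of each gene, cKO against WT (y axis), as reported (diamond), with 1 animal left out (circles) and under other settings (squares), filled where the adjusted p was under 0.05. Ghrl and Tph1 are filled throughout, and Gip and Cck are filled in 1 circle, the fit without WT animal 2.

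Single animals stood out across members rather than in 1 gene. WT animal 2 had the highest WT value in CPM of 8 members (Gcg, Cck, Sct, Gip, Sst, Nts, Ghrl and Tph1), and WT animal 4 had the highest value of the other 2, Chga and Chgb, and the lowest of 5. Among cKO animals, animal 5 was highest for 6 members (Gcg, Cck, Sct, Gip, Sst and Nts) and animal 4 for 4 (Chga, Chgb, Ghrl and Tph1). The chromogranins and Tph1 thus peaked in the same cKO animal, and the peptides of K, I, L, S and N cells in another. Without WT animal 2, edgeR called 8 members higher in place of 5. These were the main calls less Chga (adjusted p = 0.0705), with Gcg, Sct, Cck and Gip added. Without any 1 of WT animals 1, 3, 4 and 5 or cKO animal 5, it called 3.

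Deviations from the genotype mean, in log2 CPM, were also compared with those of Chga over the 10 libraries. These values are descriptions over libraries that share depth and cell composition. A single library, cKO animal 4, weighs heavily in them. Chga measured 134.9 CPM there, against 78.0 to 99.9 CPM in the other cKO animals. Gcg (13.1 CPM) and Nts (0.306 CPM) had their lowest cKO values in that animal. Correlations without it were not computed. Of 14718 other genes, the 5 most like Chga were Gnao1 (Pearson r 0.95, Spearman rho 0.87), Chgb (0.93 and 0.90), Sycn (0.92 and 0.87), Mia (0.92 and 0.95) and Gm4540 (0.92 and 0.91). Gnao1 encodes a G protein alpha subunit abundant in neuroendocrine cells, and Sycn a zymogen granule protein. Tph1 came at rank 9 (r = 0.90, rho = 0.81), Ghrl at rank 477 (r = 0.61, rho = 0.55) and Sst at rank 692 (r = 0.56, rho = 0.39). Sct (r = 0.23, rho = 0.26), Gip (r = 0.01, rho = -0.12) and Cck (r = 0.00, rho = -0.02) varied largely apart from Chga, while Gcg (r = -0.41, rho = -0.39, rank 12800) and Nts (r = -0.52, rho = -0.49, rank 13617) lay toward the opposite end.

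Among the other gut endocrine peptides, 3 of 8 genes were tested (median log2 fold change 0.91). All 3 were called higher, against 15.6% of all tested genes. Tac1, which encodes substance P in crypt enterochromaffin cells, measured 10.4 ± 1.64 CPM in WT and 14.0 ± 1.74 CPM in cKO (log2 fold change 0.42, adjusted p = 0.0221). Ucn3, urocortin 3, went from 1.21 ± 0.312 to 2.27 ± 0.297 CPM with no overlap (0.91 on the log2 scale, adjusted p = 0.01). Such separation in CPM with cKO higher held for 12.0% of all tested genes. Iapp, the amylin gene, went from 0.468 ± 0.158 to 0.948 ± 0.26 CPM (1.01 on the log2 scale, adjusted p = 0.0272). The Iapp call was lost when any 1 of WT animals 3, 4 and 5 or cKO animals 2, 4 and 5 was left out (adjusted p up to 0.0693), and the Tac1 call without WT animal 3 (adjusted p = 0.0536) or cKO animal 4 (adjusted p = 0.0546). Without either of those animals the list had 1 call. Pyy, Insl5, Gast, Nmu and Uts2b were below the filter. Sct marks enterochromaffin cells on the villus as Tac1 marks them in the crypt, and the log2 TPM ratio of Sct to Tac1 was -0.70 ± 0.47 in WT and -0.32 ± 0.11 in cKO (SD, n = 5). It ran from -1.35 to -0.12 in WT and from -0.41 to -0.14 in cKO, so the groups overlapped. The log2 TPM ratio of Nts to Gcg was -5.06 ± 1.37 in WT and -5.2 ± 0.46 in cKO, also overlapping.

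Of 15 genes for prohormone processing and the secretory granule, 13 were tested, 2 were called higher and 0 lower (median log2 fold change 0.42), a share of higher calls near the 15.6% of all tested genes. At an unadjusted edgeR p under 0.05, 5 were higher and 0 lower, and DESeq2 and limma called 0 lower. Scg2, the granule protein secretogranin II, rose from 4.62 ± 0.797 to 8.19 ± 0.663 CPM (log2 fold change 0.83, SE 0.13, adjusted p = 0.00147). Its groups did not overlap, which in CPM with cKO higher held for 12.0% of all tested genes. Pcsk1, the prohormone convertase that cuts GLP-1 from proglucagon, rose from 14.0 ± 2.13 to 18.9 ± 1.7 CPM (0.43 on the log2 scale, adjusted p = 0.0142). The mean effective length of Pcsk1 was 4254.1 bases in WT and 4541.6 bases in cKO, and on TPM its log2 fold change was 0.20 (limma adjusted p = 0.288). The carboxypeptidase Cpe stood at 0.22 on the log2 scale (adjusted p = 0.0776) and the amidating enzyme Pam at -0.09 (adjusted p = 0.538). Without WT animal 2 the list had 4 calls, Cpe among them (adjusted p = 0.0398).

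All 18 transcription factors of the endocrine lineage were tested, with 0 called higher and 3 lower. The shares of all tested genes were 15.6% and 12.7%, and the share of lower calls was near the latter. The median log2 fold change of the 18 factors was 0.13, with 10 estimates positive and 8 negative. At an unadjusted edgeR p under 0.05, 2 of the factors were higher, with 0 called higher by DESeq2 or limma. Neurog3, the factor that commits progenitors to the endocrine fate, measured 9.41 ± 0.622 CPM in WT and 8.18 ± 1.08 CPM in cKO (log2 fold change -0.20, SE 0.11, adjusted p = 0.169). Nkx2-2, which acts after Neurog3, stood at 0.12 (adjusted p = 0.348). Foxa1 measured 28.6 ± 3.57 CPM in WT against 21.1 ± 1.78 CPM in cKO, with -0.44 on the log2 scale (adjusted p = 0.00678). Mnx1 measured 7.63 ± 1.11 against 5.69 ± 0.185 CPM (-0.42, adjusted p = 0.0166). Neither gene's groups overlapped in CPM, which with cKO lower held for 7.62% of all tested genes. In TPM the Foxa1 groups just overlapped, with a WT minimum of 9.29 and a cKO maximum of 9.31 TPM. Foxa2 passed at -0.35 (adjusted p = 0.046), and this call was lost without any 1 of WT animals 3, 4 and 5 or cKO animals 1 to 5 (adjusted p up to 0.109). Forkhead factors of the FOXA family are required in mice for L and D cells, and are expressed in other epithelial cells too.

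The serotonin genes beyond Tph1 numbered 7, all tested, with 4 higher and 0 lower (median log2 fold change 0.47). The shares of all tested genes were 15.6% higher and 12.7% lower. At an unadjusted edgeR p under 0.05, 0 were lower, and DESeq2 and limma called 0 lower. Ddc, which converts 5-hydroxytryptophan to serotonin, rose from 83.8 ± 17.4 to 150.6 ± 19.1 CPM (0.85 on the log2 scale, adjusted p = 0.00194). The vesicular transporter Slc18a1 rose from 6.03 ± 0.785 to 8.34 ± 1.75 CPM (0.47, adjusted p = 0.0364), a call lost without any 1 of WT animals 1, 3, 4 and 5 or cKO animals 1, 4 and 5 (adjusted p up to 0.0958). The reuptake transporter Slc6a4 rose by 0.56 (adjusted p = 0.00222) and the breakdown enzyme Maoa by 1.03 on the log2 scale (adjusted p = 0.00823). Ddc, Slc6a4 and Maoa are also expressed by enterocytes. Pts (0.02, adjusted p = 0.864) and Gch1 (0.12, adjusted p = 0.518), which make the cofactor of TPH1, did not pass.

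**Figure D4:**
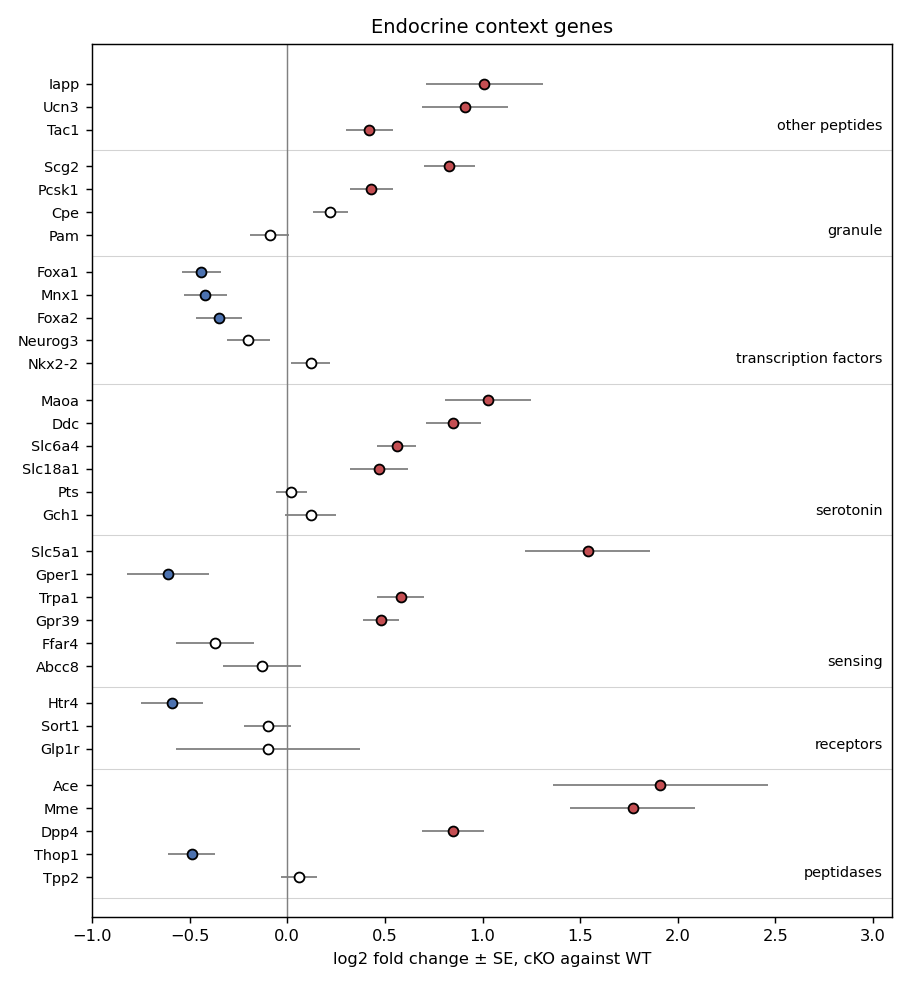
Log2 fold change, cKO against WT, with SE (x axis) of 32 genes of the endocrine system named by rule, grouped by role and filled red where called higher, blue where called lower and white where the threshold was missed. Called peptide, granule and serotonin genes lie to the right of 0, and the called transcription factors to the left. The shares of granule genes called higher and of transcription factors called lower were near those of all tested genes.

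Of 14 genes for nutrient and stimulus sensing, 8 were tested (median log2 fold change -0.16). Of these, 3 were called higher and 1 lower, against 15.6% and 12.7% of all tested genes. Trpa1, an irritant channel of enterochromaffin cells, rose from 8.7 ± 1.36 to 13 ± 1.41 CPM (0.58 on the log2 scale, adjusted p = 0.00482), and the zinc receptor Gpr39 from 16.7 ± 1.56 to 23.3 ± 2.5 CPM (0.48, adjusted p = 0.00369). Neither gene's groups overlapped in CPM, which with cKO higher held for 12.0% of all tested genes. Slc5a1, the glucose transporter SGLT1 of enterocytes and endocrine cells, rose by 1.54 (adjusted p = 0.0079). Gper1, a membrane estrogen receptor, passed at -0.61 (adjusted p = 0.0458) and lost its call without any 1 of WT animals 1, 3 and 5 or cKO animals 1, 2, 3 and 5 (adjusted p up to 0.105). It also missed the threshold with RLE factors (adjusted p = 0.0516), no filter (0.052), the length offset (0.102), the replicate block (0.0736) and limma on TPM (0.0847). The lipid receptor Ffar4 (-0.37, adjusted p = 0.194) and Abcc8 (-0.13, adjusted p = 0.651), a subunit of the ATP-sensitive potassium channel, did not pass.

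Receptors for the hormones were mostly at or near 0. Of 18 receptor genes, 10 had at most 3 counts in every library and 7 were tested (median log2 fold change -0.10). Of these, 1 was called lower, a share near the 12.7% of all tested genes, and 0 higher, against 15.6%. At an unadjusted edgeR p under 0.05, 1 was higher, and DESeq2 and limma called 0 higher. The called gene was the serotonin receptor Htr4, which measured 7.52 ± 1.57 CPM in WT animals against 4.98 ± 0.842 CPM in cKO animals (-0.59, adjusted p = 0.0189, and -0.49 with adjusted p = 0.0512 without WT animal 4). Sort1, sortilin, which binds neurotensin, did not pass (-0.10, adjusted p = 0.551), nor did the GLP-1 receptor Glp1r (-0.10, SE 0.47, adjusted p = 0.899). Of 5 peptidases that cleave gut hormones, all tested, 3 were called higher and 1 lower (median log2 fold change 0.85). The shares of all tested genes were 15.6% higher and 12.7% lower. Dpp4, which inactivates GLP-1 and GIP, rose from 142.0 ± 30.8 to 255.7 ± 46.7 CPM (0.85, adjusted p = 0.00417), and neprilysin (Mme) rose by 1.77 (adjusted p = 0.0049). Ace passed at 1.91 (adjusted p = 0.0312), lost without any 1 of WT animals 3 and 5 or cKO animals 1, 2, 4 and 5 (adjusted p up to 0.0777). Thop1, which cleaves neurotensin, fell by 0.49 (adjusted p = 0.00952), and Tpp2, which degrades cholecystokinin, did not pass (0.06, adjusted p = 0.648). Dpp4, Mme and Ace are brush-border enzymes of enterocytes.

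Markers of some other cell types moved with genotype, and their part in the hormone values was not tested. Their call counts stand beside 15.6% higher and 12.7% lower among all tested genes. All 8 enterocyte markers were called higher (log2 fold changes 1.51 to 2.06). Their summed level was 1297.5 to 6736.0 TPM in WT and 6932.2 to 13870.5 TPM in cKO. WT animal 2 had the highest WT sum and the highest WT CPM of 8 members. WT animal 4 had the lowest sum and the lowest WT CPM of 5 members, but the highest WT CPM of 2, Chga and Chgb. Of 6 Paneth markers 5 were called lower (summed 42643.5 to 61758.4 TPM in WT and 24561.0 to 34042.1 TPM in cKO), and of 5 stem cell markers 3 were called lower (2297.3 to 4218.6 and 1694.1 to 2747.1 TPM). Of 7 goblet markers 1 (Spdef) was called lower and 0 higher (2395.0 to 4398.1 and 3243.3 to 4175.7 TPM), with 1 higher at an unadjusted edgeR p under 0.05, 1 by DESeq2 and 0 by limma. The goblet share of lower calls was near that of all tested genes. Of 7 tuft markers 6 were tested and 3 called higher (59.2 to 67.4 and 60.3 to 78.7 TPM). Enteric neurons and mast cells also make some of these products. Of 10 neuron and glia markers, 6 had at most 3 counts in every library, Vip was at 0, and the sum was 0.8 to 1.51 TPM in WT and 0.83 to 1.31 TPM in cKO. The sum of 7 mast cell markers was 9.2 to 17.2 and 11 to 14.6 TPM. A large part of it was Kit, with means of 7.26 TPM in WT and 5.95 TPM in cKO against mean sums of 13.3 and 12.5 TPM. Both lists had 0 edgeR calls, 0 at an unadjusted p under 0.05 and 0 by DESeq2 or limma. Of 8 other immune and stromal markers 3 were called lower (Jchain, Pecam1 and Acta2), with sums of 41.2 to 77.9 TPM in WT and 18.2 to 60.0 TPM in cKO.

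The scaling between libraries bore on the smaller changes. With library size alone in place of TMM, the median log2 fold change of all genes moved from -0.03 to -0.16, and on log2(TPM + 1) with limma to -0.10. The share of higher among called genes was 55.1% in the fit reported, 27.7% with library size alone and 33.8% with limma on TPM. Both gave 2 called members, Ghrl (log2 fold changes 0.55 and 0.56) and Tph1 (0.44 and 0.42). Chgb had adjusted p = 0.056 with edgeR and library size alone and 0.071 with limma on TPM, Chga 0.141 and 0.176, and Sst 0.0857 and 0.0923. Among the other endocrine genes, Tac1 (adjusted p = 0.0724), Pcsk1 (adjusted p = 0.073) and Slc18a1 (adjusted p = 0.108) missed the threshold with library size alone, while Neurog3 passed there (log2 fold change -0.33, adjusted p = 0.04). Relative to the median of all genes, Ghrl was higher by 0.71, 0.72 and 0.66 and Chgb by 0.46, 0.47 and 0.42 under the reported, library size and TPM scalings.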

How the data were processed

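The authors processed reads with the STAR and RSEM of the nf-core/rnaseq pipeline against an Ensembl release of GRCm38, and deposited, per library, an expected count and a TPM for each gene, with an effective length. RSEM divides reads that match several genes. The strand setting is not given in the sources used here. Ensembl IDs were matched to GENCODE M21 symbols of the same build (54723 of 54838, and unmatched genes took 0.0193% of counts). Expected counts were rounded and tested in R 4.3.3 with edgeR 4.0.16 (filterByExpr with minimum count 10 and minimum total 15, TMM, robust quasi-likelihood test, Benjamini-Hochberg adjustment over all tested genes, threshold 0.05). CPM used TMM-normalized sizes, and log2 CPM a pseudocount of 0.5. Deposited TPM compared levels between genes. Alternatives were DESeq2 1.42.0 (the study's own tool), limma 3.58.1 on TPM, RLE factors, library size alone, no filter, 10 counts in every library, an effective-length offset, a replicate block and each animal left out.

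The members and lists were chosen with earlier results of these data known. Named genes were the members, Arid3a, up to 6 called genes by size of change and the 2 most abundant uncalled genes of each endocrine list, and the 5 genes most like Chga. Marker lists are given by counts. RNA was polyadenylated and reads carried no molecular identifiers, so a count is one of reads and not of molecules. Promoters matched all 10 members in RefSeq (GRCm38.p6). The script was tested on simulated data.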

Additional observations from a re-analysis of the deposited data

Results flagged for a closer look

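One value stood far from the others of its group by Dixon's criterion among 30 groups of 5 animals examined for the members, Arid3a, their sum and 3 ratios. The log2 TPM ratio of Nts to Gcg was -7.46 in WT animal 4, against -4.94 to -4.12 in the other 4 WT animals. Nts held 2 counts in that animal and Gcg 280. Chance flags about 1 in 20 such groups.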

How the results depend on the processing

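Of the members, Ghrl, Tph1, Chgb, Chga and Sst kept a positive log2 fold change under every alternative run, and so did Gcg, Sct, Cck and Gip. Members called higher numbered 5 in the fit reported, 2 with library size alone, 2 with limma on log2(TPM + 1), and 3 to 8 with 1 animal left out. Members called lower numbered 0 throughout. Nts turned to -0.11 without WT animal 4 (-0.11 to 0.52 with 1 animal left out), and with at least 10 counts in every library it was not tested. DESeq2 also called Gcg (adjusted p = 0.0149) and Sct (adjusted p = 0.0411). Chga was lost with no filter (edgeR adjusted p = 0.0872) and with the length offset (adjusted p = 0.0521). The cause was not tested.

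Replicate numbers did not pair the animals: correlations of deviations between same-numbered animals ran from -0.157 to 0.131, and between others from -0.24 to 0.298. With the replicate number as a block, 3048 genes were called in place of 4167 and the enterocyte list had 5 calls in place of 8. Members called higher were 4, Sst being lost (edgeR adjusted p = 0.0541), as were the calls of Iapp, Foxa2, Slc18a1, Gper1 and Ace (adjusted p 0.0642 to 0.0974). With no filter Foxa2 (adjusted p = 0.0784) and Ace (adjusted p = 0.0777) were also lost.

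For the lists, granule genes had 1 call in place of 2 with library size alone, the length offset or limma on TPM, and 2 to 4 with 1 animal left out. Goblet markers had 2 in place of 1 with library size alone, DESeq2 or limma, and 1 to 2 with 1 animal left out. Tuft markers had 1 in place of 3 with library size alone, no filter, the length offset or limma, and 1 to 4 with 1 animal left out. Enterocyte markers had 3 with no filter and 3 to 8 with 1 animal left out. With 1 animal left out, calls ran from 1 to 3 among other peptides, 0 to 2 among receptors (0 without WT animal 4, 2 without cKO animal 2), 0 to 3 among stem cell markers (0 without WT animal 3 or 4 or cKO animal 1, 3 or 5), and 0 to 1 among mast cell markers (1 without WT animal 5). Enterocyte calls numbered 5 without WT animal 3 or 5 or cKO animal 4 and 3 without cKO animal 5.

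Some uncalled genes changed sign. With library size alone Nkx2-2 was -0.0033, Gch1 -0.0029, Pts -0.11 and Tpp2 -0.07. With limma on TPM, Cpe was -0.01, Pts -0.03, Tpp2 -0.03 and Abcc8 0.14, and Abcc8 was 0.47 with the length offset. With 1 animal left out Pts ran from -0.03 to 0.07, Sort1 from -0.15 to 0.0062 and Glp1r from -0.41 to 0.15. Called genes kept their direction. The summed TPM of members, 0.33 higher on the log2 scale, ran from 0.26 to 0.39 with 1 animal left out. At about 27 to 31 counts per CPM before the TMM factors, Nts and the receptors near 0 rest on few counts.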
